A study of Mus musculus with 2 samples.

Results

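Gzma, Gzmb, Gzmk, Prf1, Nkg7, Ifng, Pdcd1, Lag3, Tox and Cxcr6 are 10 genes of T-cell killing and exhaustion, given as a list of symbols, and each was found once among the 32285 genes of the deposited matrices. Their UMI counts (unique molecular identifiers, 1 for each captured transcript) were read in CD8 T cells, other T cells and natural killer (NK) cells against all other cells. The data are 2 single-cell RNA libraries of dissociated whole brain from mice aged 6 months. Both carry APP-KI, an Alzheimer's disease model made by knock-in into the amyloid precursor gene; 1 library is Fit2-WT and 1 is Fit2-Mut, and the series asks what changes when Fit2 is disrupted in macrophages. The labels give neither the altered part of Fit2, nor what drives the alteration, nor how many mice entered a library. With 1 library per genotype, no test between genotypes is possible.

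Cytotoxic lymphocytes kill by releasing granules into a target cell. Perforin, the product of Prf1, forms pores, and granzymes, serine proteases encoded by Gzma, Gzmb and Gzmk, pass into the target; Nkg7 is a granule membrane protein that helps granule release. Ifng encodes interferon gamma, which acts on macrophages, microglia and many other cells. Pdcd1 (PD-1) and Lag3 are receptors that dampen T-cell activation and stay high on chronically stimulated, exhausted T cells, and Tox encodes a nuclear factor that sets up that state. Cxcr6 is a chemokine receptor of tissue-resident T cells whose ligand, CXCL16, is made by macrophages and microglia.

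A barcode counted as a cell when it had 1000 UMIs or more, 500 genes or more and no more than 10% mitochondrial UMIs, which left 5333 in Fit2-WT and 5979 in Fit2-Mut of 52491901 and 63234140 UMIs in all. CD8 T cells needed at least 2 UMIs over Cd3d, Cd3e and Cd3g and at least 1 of Cd8a or Cd8b1; they numbered 138 and 174, 2.59% and 2.91% of cells. Other T cells, with Cd3 but no Cd8 UMI, numbered 61 and 58, and NK cells, with at least 2 of 8 NK receptor genes, at most 1 Cd3 UMI and no Cd8 UMI, 49 and 41. No member was used in a gate. Of the markers outside the gates, Trac had a UMI in 81.2% and 81.6% of CD8 T cells. Median depth was 4367 and 4876 UMIs in CD8 T cells against 7099 and 7672 in all other cells. Levels are counts per 1e6 UMIs (CPM), the UMI sum of a gene over that of all genes in a class, and a bracketed range is an exact 95% interval that covers counting error only. No lymphocyte barcode was shared between the libraries. Mouse Fit2, Fitm2 in the files, had 18 and 4 UMIs in microglia-like cells (3.04 and 0.545 CPM) and 8.04 and 8.07 CPM in the rest of the other cells; a 3' tag may lie outside the altered part.

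Some lymphocyte barcodes also carried microglial RNA. At least 10 UMIs over 11 microglial markers were found in 20 CD8 T barcodes of Fit2-WT (14.5%, 9.08 to 21.5) and 47 of Fit2-Mut (27%, 20.6 to 34.3). Their median depth was 8718.5 and 12454 UMIs, against 4230 and 4186 in the remaining CD8 T barcodes. The microglial list summed to 6523 and 13805 CPM in CD8 T cells, with no marker at 0, and to 144 and 153 CPM without those barcodes. Scrublet called 7 and 3 of the CD8 T barcodes doublets. Results in CD8 T cells are therefore given with and without the barcodes that carry microglial genes.

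The promoters of the 3 granzymes and of Prf1 are shown because these 4 genes divide the lymphocyte classes most sharply in the levels that follow. The sequences are from RefSeq on GRCm38.p6, 250 bases before to 50 after the start site, 5′ to 3′ on the gene's strand, and 8 of the 10 genes had an entry. Capitals mark, on either strand, the T-box letters AGGTGT (bound by T-bet and Eomes), the RUNX letters TGTGGT, the AP-1 letters TGANTCA and the ETS letters ACAGGAA; no 2 of them overlapped in these sequences. Of 32851 promoters of the same length in the table, 13.7% hold the T-box letters, 16.8% the RUNX, 7.81% the AP-1 and 8.67% the ETS letters. RefSeq start sites need not be the ends of the gene spans given with each gene, which are GENCODE's. The window of Gzma lies at chr13:113100932-113101231 on the minus strand, that of Gzmk at chr13:113180916-113181215 on the minus strand, Gzmb at chr14:56262285-56262584 on the minus strand and Prf1 at chr10:61297586-61297885 on the plus strand.
Gzma: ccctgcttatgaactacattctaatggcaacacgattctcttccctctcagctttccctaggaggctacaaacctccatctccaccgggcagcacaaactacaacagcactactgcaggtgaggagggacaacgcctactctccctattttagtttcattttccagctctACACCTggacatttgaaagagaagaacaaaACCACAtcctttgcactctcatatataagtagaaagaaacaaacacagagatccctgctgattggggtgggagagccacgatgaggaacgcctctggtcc
Gzmk: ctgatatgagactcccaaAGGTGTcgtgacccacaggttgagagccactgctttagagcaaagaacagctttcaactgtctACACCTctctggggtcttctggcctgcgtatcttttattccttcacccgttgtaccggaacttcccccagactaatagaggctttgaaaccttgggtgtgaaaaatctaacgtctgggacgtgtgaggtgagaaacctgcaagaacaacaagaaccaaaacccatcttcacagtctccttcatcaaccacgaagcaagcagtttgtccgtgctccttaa
Gzmb: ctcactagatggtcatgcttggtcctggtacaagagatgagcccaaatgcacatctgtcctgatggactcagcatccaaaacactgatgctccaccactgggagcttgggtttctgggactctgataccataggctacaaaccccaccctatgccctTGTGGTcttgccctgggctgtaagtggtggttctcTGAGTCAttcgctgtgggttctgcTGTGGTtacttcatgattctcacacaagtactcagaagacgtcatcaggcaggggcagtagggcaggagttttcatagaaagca
Prf1: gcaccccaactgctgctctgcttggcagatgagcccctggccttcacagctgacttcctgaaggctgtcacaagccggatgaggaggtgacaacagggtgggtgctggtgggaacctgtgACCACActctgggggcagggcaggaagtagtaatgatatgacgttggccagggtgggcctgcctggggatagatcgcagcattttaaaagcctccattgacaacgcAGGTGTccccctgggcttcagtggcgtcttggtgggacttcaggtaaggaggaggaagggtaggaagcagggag

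Gzma holds 1 T-box match, 80 bases before the start site, and 1 RUNX match 50 bases before it. Gzmk holds 2 T-box matches and none of the other letters. Gzmb holds 2 RUNX matches and 1 AP-1 match, 58 bases before the start site, and no T-box letters. Prf1 holds 1 RUNX match and 1 T-box match, 24 bases before the start site. Nkg7 also has 1 T-box and 1 RUNX match, Cxcr6 has 1 RUNX match, and the windows of Ifng and Pdcd1 hold none of these letters. A match describes letters and not a bound site.

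Gzma, which encodes granzyme A, was an NK gene in these brains, and the few T cells that carried it carried much of it. The gene (ENSMUSG00000023132) lies at chr13:113093825-113100981, minus strand. NK cells had 10922 CPM in Fit2-WT (2773 UMIs) and 8610.3 CPM in Fit2-Mut (2191 UMIs), with a UMI in 95.9% and 82.9% of cells. CD8 T cells had 423 CPM in Fit2-WT (342 UMIs) and 118 CPM in Fit2-Mut (163 UMIs), but only 14 and 10 cells held any. The 5 highest cells held 76% and 95.1% of the CD8 T UMIs, so the class level rests on a handful of cells. Other T cells had 209 and 656 CPM, all of it in 2 and 5 cells. Barcodes with UMIs of at least 2 NK receptor genes held 35 of 65 and 217 of 228 Gzma UMIs of other T cells in Fit2-WT and Fit2-Mut, and 92 of 342 and 93 of 163 of CD8 T cells. All other cells had 0.456 and 0.339 CPM. Both NK libraries lay above every T cell sum, and the CD8 T against NK log2 difference was -5.04 (SE 0.66, adjusted p = 0.00566) by edgeR's quasi-likelihood test over 11930 genes.

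Gzmb, granzyme B, was also highest in NK cells. It lies at chr14:56258838-56262260, minus strand (ENSMUSG00000015437). Levels were 934 and 554 CPM in NK cells, 89.1 and 88.2 CPM in CD8 T cells and 45.1 and 48.9 CPM in other T cells. The NK libraries did not overlap either T cell class, although the Fit2-WT NK level was above the Fit2-Mut one; the 5 highest NK cells held 48.5% and 40.4% of the UMIs. CD8 T cells were lower than NK cells by edgeR, with a log2 difference of -2.82 (SE 0.25, adjusted p = 0.000542).

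Gzmk, granzyme K, ran the other way: it was highest in CD8 T cells and had no UMI in NK cells. The gene (ENSMUSG00000042385) spans chr13:113171608-113225908, minus strand, on the same strand as Gzma with 70626 bases between the genes. CD8 T cells had 236 CPM in Fit2-WT (191 UMIs) and 238 CPM in Fit2-Mut (329 UMIs), with a UMI in 52.2% and 67.8% of cells. Other T cells had 41.9 and 48.9 CPM and all other cells 0.114 and 0.0564 CPM, with a UMI in 0.0983% and 0.0526% of those cells, which are deeper. No NK cell of either library held a Gzmk UMI, which allows up to 6.12% and 7.32% of cells with a captured UMI at median depths of 3917 and 4595 UMIs and sets no limit on the share that express the gene. Against the floor of 3 counts per library, Gzmk was at least 20-fold and 20.2-fold higher in CD8 T than in NK cells (edgeR adjusted p = 0.000391). Gzmk was also the one member that passed the test between CD8 T and other T cells, with a log2 difference of 2.44 (SE 0.27, adjusted p = 0.0463) by edgeR. That call is narrow: the adjusted p was 0.0757 with doublets removed and 0.0515 with another scaling, while the log2 difference stayed between 2.33 and 3.15 over the alternatives that give a test.

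Prf1, perforin, was an NK gene like Gzmb. The gene (ENSMUSG00000037202) lies at chr10:61297833-61304680, plus strand. NK cells had 1091 and 947 CPM, CD8 T cells 74.3 and 67.2 CPM and other T cells 45.1 and 46 CPM. A Prf1 UMI was found in 93.9% and 87.8% of NK cells and 29.7% and 40.2% of CD8 T cells. The NK sums did not overlap the T cell sums, and the CD8 T against NK log2 difference was -3.64 (SE 0.25, adjusted p = 0.000253) by edgeR. Nkg7 (ENSMUSG00000004612, chr7:43437073-43438249, plus strand) was shared by both cytotoxic classes: a UMI was found in 97.1% and 99.4% of CD8 T cells, 98% and 100% of NK cells and 52.5% and 58.6% of other T cells, against 0.236% and 0.263% of all other cells. Its levels were 1526 and 1213 CPM, 3119.6 and 2515 CPM and 683 and 745 CPM in that order. Other T cells were lower than NK cells, with an edgeR log2 difference of -1.82 (SE 0.22, adjusted p = 0.00421); CD8 T cells against NK cells gave -0.84 (SE 0.21, adjusted p = 0.0883), which misses the threshold of 0.05.

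Ifng was found in T and NK cells alike and almost nowhere else. The gene (ENSMUSG00000055170) lies at chr10:118441046-118445892, plus strand. CD8 T cells had 132 and 119 CPM, other T cells 155 and 54.7 CPM and NK cells 90.6 and 55 CPM, with 2 and 7 UMIs in all other cells together. Other T cells overlapped both other classes. CD8 T cells were above NK cells in both libraries, with ratios of 1.46 (0.925 to 2.41) in Fit2-WT and 2.15 (1.25 to 4.03) in Fit2-Mut. No difference among the classes passed edgeR's test (adjusted p = 0.281 for CD8 T against NK and 0.804 for CD8 T against other T). The 5 highest cells held 41.1% and 31.7% of the CD8 T UMIs. Of the genes on the receiving side, Ifngr1, a chain of the interferon gamma receptor, had 567 and 496 CPM in monocyte-like and 227 and 257 CPM in microglia-like cells.

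**Figure D1:**
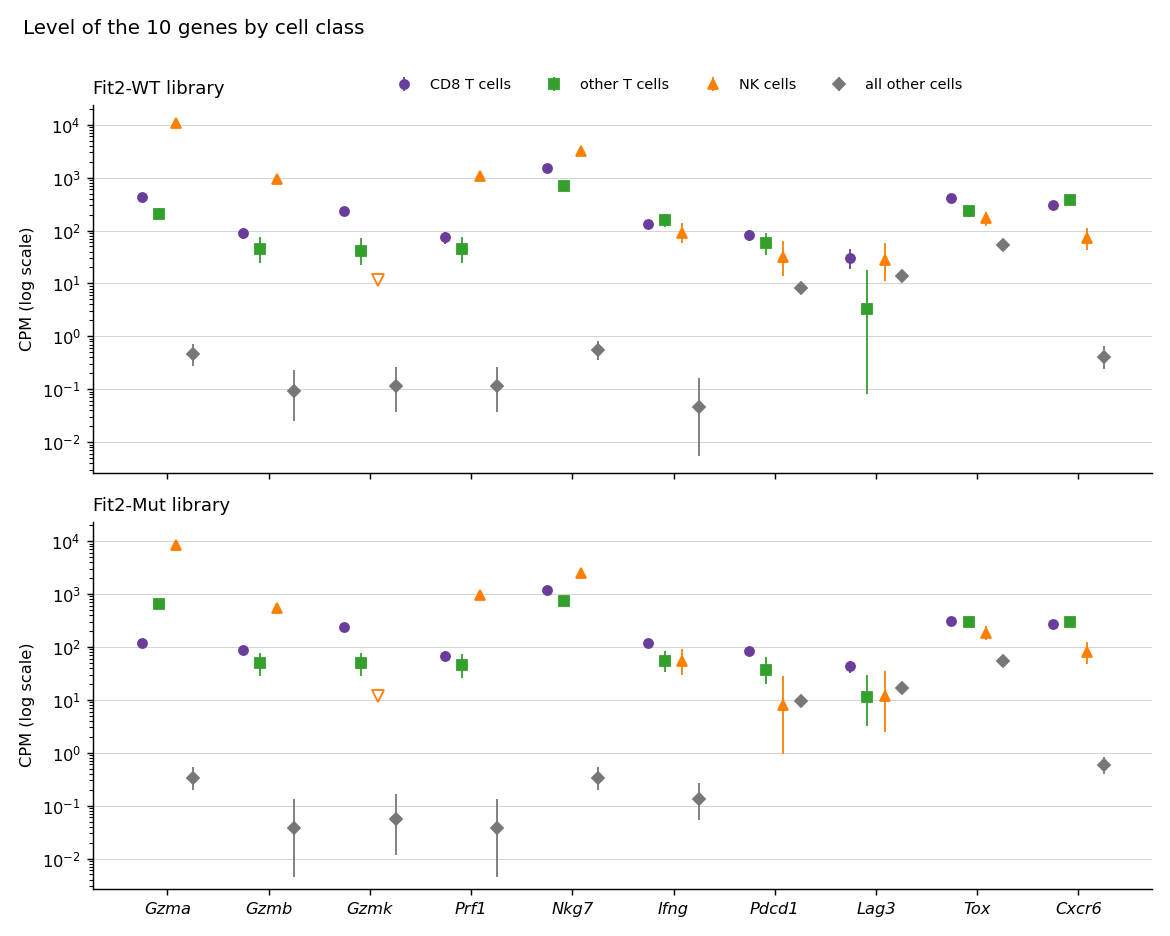
Level of each gene in 4 cell classes, as CPM on a log axis, in the Fit2-WT library (upper) and the Fit2-Mut library (lower). Points are class sums with exact 95% Poisson intervals of counting error, and an open triangle pointing down marks a class with 0 UMIs drawn at the level of 3 counts. Gzma, Gzmb and Prf1 peak in NK cells, Gzmk is at 0 UMIs there, and Pdcd1, Lag3 and Tox are the genes whose level in all other cells lies within 100-fold of the lymphocyte levels.

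Pdcd1, which encodes PD-1, was found in CD8 T cells and also in microglia-like cells. The gene (ENSMUSG00000026285) lies at chr1:94038305-94052553, minus strand. CD8 T cells had 81.7 CPM in Fit2-WT (66 UMIs) and 83.8 CPM in Fit2-Mut (116 UMIs), with a UMI in 21.7% and 35.1% of cells. Other T cells had 58 and 37.4 CPM and NK cells 31.5 and 7.86 CPM, from 8 and 2 UMIs. CD8 T cells were above NK cells in both libraries, and edgeR gave a log2 difference of 2.29 (SE 0.47, adjusted p = 0.0437); without the barcodes that carry microglial genes the difference was 2.58 (adjusted p = 0.0546), with total UMI scaling 2.08 (adjusted p = 0.0684) and with doublets removed 2.12 (adjusted p = 0.0982), so the call is lost under each. Only 20.1% and 20.9% of all Pdcd1 UMIs were in the 3 lymphocyte classes. Microglia-like cells held most of the rest, with 58.3 and 58.4 CPM and a UMI in 33.9% and 36.1% of 558 and 582 cells. In astrocyte-like and oligodendrocyte-like cells no Pdcd1 UMI was found. Leaving out the barcodes with microglial genes left 54 of 66 and 53 of 116 CD8 T UMIs, at 91.8 and 80.9 CPM.

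Lag3 counts in lymphocytes lay mostly in barcodes that carry microglial genes in both libraries, whereas for Pdcd1 this held only in Fit2-Mut. The gene (ENSMUSG00000030124) lies at chr6:124904361-124911705, minus strand, and its receptor binds MHC class II. CD8 T cells had 29.7 CPM in Fit2-WT (24 UMIs) and 42.6 CPM in Fit2-Mut (59 UMIs), other T cells 1 and 4 UMIs (3.22 and 11.5 CPM) and NK cells 7 and 3 (27.6 and 11.8 CPM). Of the CD8 T UMIs, 19 and 54 were in barcodes with microglial genes, where the level was 86.6 and 74.1 CPM. The remaining CD8 T barcodes held 5 and 5 UMIs, 8.50 and 7.64 CPM. Microglia-like cells had 90.7 CPM in Fit2-WT (537 UMIs) and 104 CPM in Fit2-Mut (767 UMIs), the highest level of any type in both libraries. Among barcodes under 10 microglial UMIs, B cell-like, border-associated macrophage-like and NK cells held no Lag3 UMI in either library. These were 30 and 25, 18 and 12, and 46 and 35 barcodes in that order. So few barcodes cannot show that Lag3 is absent from these types. Over all barcodes, CD8 T cells were higher than all other cells, with an edgeR log2 difference of 1.36 (SE 0.30, adjusted p = 0.00566), but without the barcodes that carry microglial genes the difference was -0.83 (adjusted p = 0.204). At 5 and 5 UMIs, the level in CD8 T barcodes without microglial genes is close to what a few counts can show.

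**Figure D2:**
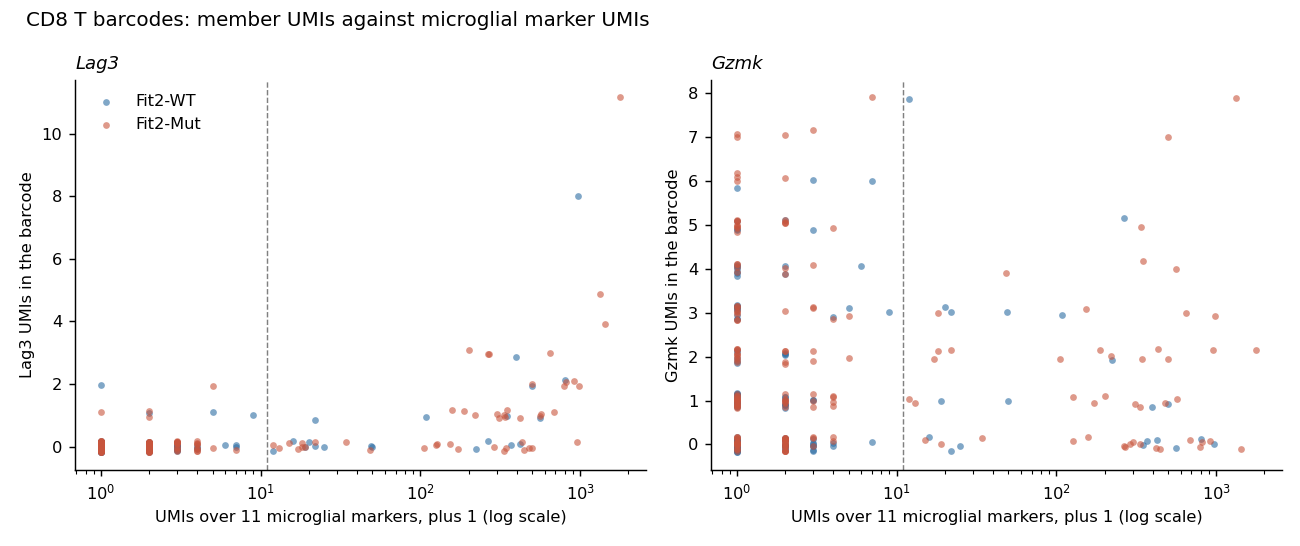
UMIs of Lag3 (left) and Gzmk (right) in each CD8 T barcode, with a small vertical jitter, against its UMIs over 11 microglial markers plus 1 on a log axis; blue is Fit2-WT and red is Fit2-Mut. The dashed line is the limit of 10 microglial UMIs: 19 of 24 and 54 of 59 Lag3 UMIs lie at or right of it, whereas Gzmk UMIs lie mostly to its left.

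Tox was highest in CD8 T cells among the lymphocytes of Fit2-WT and was also an astrocyte gene. In Fit2-Mut the 2 T cell classes were level over all barcodes, with a CD8 T over other T ratio of 1.03 (0.827 to 1.28). It spans chr4:6686353-6991557, minus strand (ENSMUSG00000041272). Levels were 407 and 310.1 CPM in CD8 T cells, 229 and 302 CPM in other T cells and 169 and 185 CPM in NK cells. The CD8 T sums did not overlap the NK sums, and the edgeR log2 difference was 1.21 (SE 0.24, adjusted p = 0.0393), but 1.01 (adjusted p = 0.0867) with total UMI scaling; between CD8 T and other T cells it was 0.49 (SE 0.23, adjusted p = 0.539). Astrocyte-like cells had 297 and 254 CPM, with a UMI in 58.7% and 59.2% of them. Among their clusters the level ran from 50.8 and 44 CPM to 581 and 506. Microglia-like cells had 2.53 and 3.81 CPM. Without the barcodes that carry microglial genes the level was 452 and 467 CPM in CD8 T cells and 225 and 341 CPM in other T cells. On those barcodes CD8 T cells were above other T cells in both libraries.

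Cxcr6 was highest in T cells and at or near 0 in the types outside the lymphocytes. It lies at chr9:123806475-123811760, plus strand (ENSMUSG00000048521). Other T cells had 377 and 291 CPM, CD8 T cells 298 and 270.3 CPM, NK cells 70.9 and 78.6 CPM and all other cells 0.410 and 0.583 CPM. The 2 T cell classes overlapped, and both were above NK cells, with edgeR log2 differences of 2.12 (SE 0.28, adjusted p = 0.00636) for CD8 T cells and 2.30 (SE 0.29, adjusted p = 0.0052) for other T cells. Its ligand gene Cxcl16 had 174 and 195 CPM in border-associated macrophage-like cells, 125 and 140.1 CPM in microglia-like cells and 119 and 94.9 CPM in fibroblast-like cells. Cd274, which encodes the PD-1 ligand PD-L1, had 156 and 225 CPM in monocyte-like, 88.9 and 178 CPM in B cell-like, 87.5 and 82.5 CPM in neutrophil-like and 74.7 and 81 CPM in microglia-like cells.

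**Figure D3:**
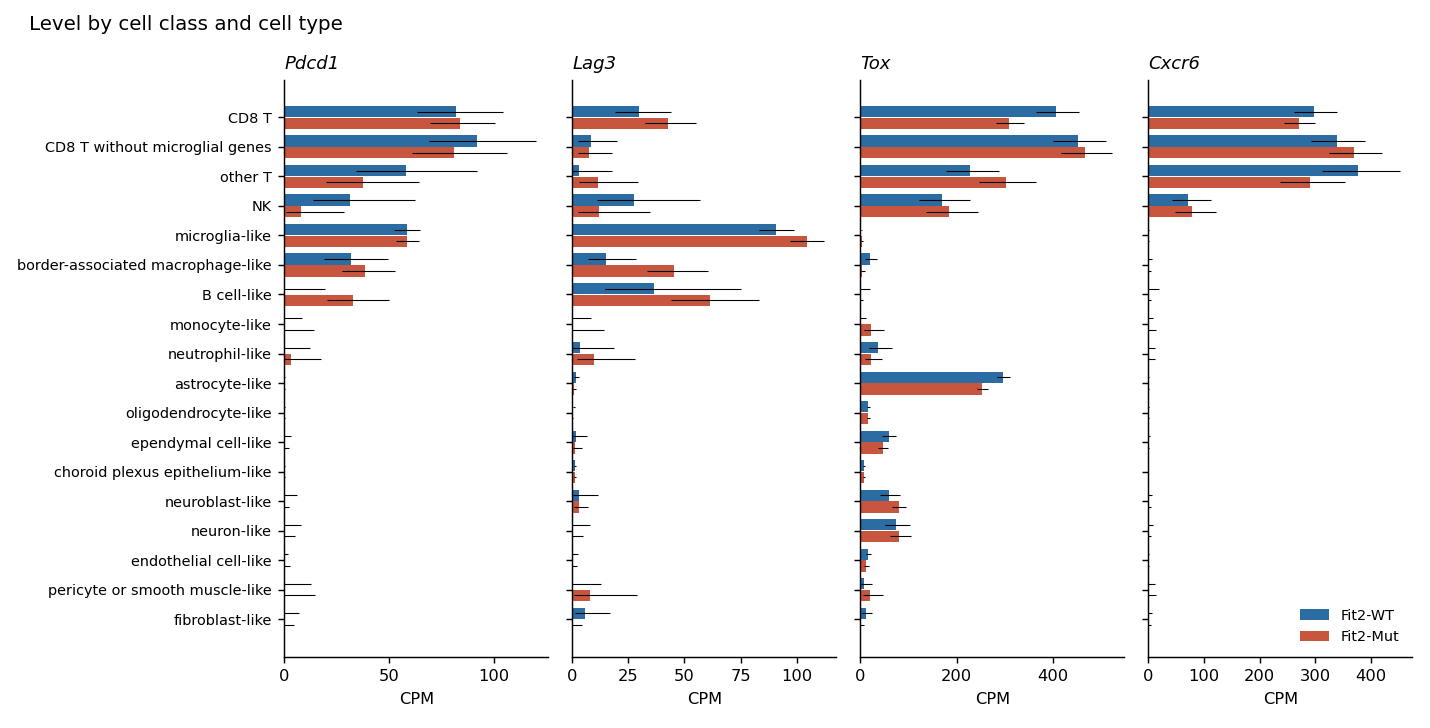
Level of Pdcd1, Lag3, Tox and Cxcr6 as CPM on linear axes that start at 0, in the lymphocyte classes, in CD8 T barcodes without microglial genes and in 14 cell types named from markers. Bars are blue for Fit2-WT and red for Fit2-Mut, and lines are exact 95% Poisson intervals of counting error. Lag3 is highest in microglia-like cells, Tox is high in CD8 T and astrocyte-like cells, and Cxcr6 is at or near 0 in every type outside the lymphocytes.

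Counted over the 10 genes, all of which passed the minimum of 10 UMIs over the lymphocyte sums, CD8 T cells were higher than NK cells in 4 (Gzmk, Cxcr6, Pdcd1 and Tox) and lower in 3 (Gzma, Gzmb and Prf1) at an adjusted p under 0.05, where 0.821% and 1.37% of all genes tested were called. Other T cells were higher than NK cells in 2 (Gzmk and Cxcr6) and lower in 4 (Gzma, Gzmb, Prf1 and Nkg7), against 0.771% and 1.01% of all genes. Between CD8 T and other T cells only Gzmk was called, and only 4 of all genes were (0.0335% higher and 0% lower), Cd8a and Cd8b1 of the gate among them; 1171 genes had an unadjusted p under 0.05 there. Against all other cells, 10 were higher in CD8 T cells (  20% of all genes were), 9 in other T cells (14.5%) and 7 in NK cells (11.9%), with none lower where   22%, 16.1% and 12.8% of genes were. The CD8 T count includes Lag3, whose sign turned without the barcodes that carry microglial genes. The median log2 difference of the 10 genes was 1.05 for CD8 T against NK, beside 0.06 over all genes, a median over genes that moved in both directions.

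Other genes of these pathways were counted in lists of 12 to 22 genes chosen for their known function, with the members left out, where 0.821% and 1.37% of all genes were called higher and lower in CD8 T than in NK cells by edgeR. In the granule and killing list, 0 of 17 tested genes were higher and 3 lower. Serpinb9, an inhibitor of granzyme B, had a difference of -3.58 (adjusted p = 0.00186) and Serpinb6b, a serpin of the same family, -3.42 (adjusted p = 0.000994). Among effector cytokines and chemokines, 1 of 9 tested genes was higher and 0 lower; the called gene was Ltb, lymphotoxin beta, at 1.98 (adjusted p = 0.0109). Ccl5, a chemokine of activated cytotoxic cells, was among the most counted genes of both classes, at 7545 and 6059 CPM in CD8 T and 12439 and 9011 CPM in NK cells. Among inhibitory receptors, 0 of 10 tested genes were higher and 2 lower: Cd244a, at -3.98 (adjusted p = 0.000465), and Klrg1, at -2.42 (adjusted p = 0.019).

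Among state transcription factors, 2 of 19 tested genes were higher and 2 lower. Tcf7 and Lef1, factors of naive and memory T cells, were higher in CD8 T cells, at 1.69 (adjusted p = 0.0357) and 2.24 (adjusted p = 0.036), and Zeb2 and Tbx21 (T-bet), factors of terminal effector cells, were lower, at -1.48 (adjusted p = 0.00996) and -2.11 (adjusted p = 0.0239). Among residency and homing genes, 2 of 15 tested genes were higher and 2 lower. Cxcr3, a receptor for interferon-induced chemokines, had a difference of 2.08 (adjusted p = 0.00891). Among NK family receptors, 0 of 13 tested genes were higher and 11 lower, a list that holds the genes of the NK gate, which fixes their direction; Klrk1 and Klrd1, outside the gate, were at -2.39 (adjusted p = 0.0122) and -2.10 (adjusted p = 0.033). Among ligands and partners, 0 of 10 tested genes were higher and 1 lower, the called gene being Ifngr1. Between CD8 T and other T cells, none of these lists had a called gene.

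Within CD8 T barcodes that carry no microglial genes, the receptor and granule genes met in the same cells unevenly. Of 61 and 88 cells with a Gzmk UMI, 31.1% and 30.7% had Pdcd1, against 8.77% and 17.9% of those without Gzmk. Of those with Gzmk, 78.7% and 79.5% had Cxcr6, against 38.6% and 48.7% of those without Gzmk. Pdcd1 and Cxcr6 UMIs were thus more frequent in cells with Gzmk in both libraries, as a description of cells that share a library and differ in depth. Gzma and Gzmb met in 9 of 12 and 7 of 8 Gzma cells. Pdcd1 and Lag3 met in 5 and 17 CD8 T barcodes in all, but in 1 and 3 of those without microglial genes. At least 1 granzyme was counted in 62.7% and 74.8% of CD8 T barcodes without microglial genes and in 97.8% and 85.7% of such NK barcodes.

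Other T cells were a mixed class. A Cd4 UMI was present in 23 and 10 of them; those cells had 379 and 738 CPM of Tox and 424 and 164 CPM of Cxcr6. The 35 and 46 cells with neither Cd4 nor Trdc (a gamma delta receptor chain) had 151 and 171 CPM of Tox and 657 and 863 CPM of Nkg7. A count of 0 for Cd4 in a cell of this depth does not show that it lacks the gene.

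Across 17 cell types and classes in both libraries (34 sums), the genes whose log2(CPM + 1) ran most like the members' differed by member, given by Pearson's r as a description of points that share libraries. Gzmb ran closest to Klrc1, Prf1 and Klre1 (r from 0.989 to 0.998) and Gzma to Klrc2, Klrc1 and Prf1 (0.983 to 0.984). Prf1 ran closest to Gzmb, Klrc1 and Klre1, and Nkg7 to Fasl, Cd160 and Apol7e. Gzmk ran closest to Themis, Cd3e and Tcrg-C2 (0.969 to 0.976), which are T cell receptor genes or partners of it. Cd3e belongs to the T cell gates and Klre1 to the NK gate, so the gates in part set the levels of both genes across these sums. Ifng ran closest to Sh2d1a, Xcl1 and Cd96, and Cxcr6 to Cd96, Trbc2 and Sh2d1a. Pdcd1 ran closest to Klk8, Tnfsf8 and Ccl4 and Tox, more loosely, to Thy1, Btbd11 and Hdhd5 (0.788 to 0.833). Lag3 ran closest to Plau, Fcrls and Slc2a5 (0.890 to 0.918), of which Fcrls and Slc2a5 are microglial genes.

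Between the genotypes, the Fit2-Mut over Fit2-WT ratios of the members in CD8 T cells ran from 0.278 for Gzma to 1.44 for Lag3. In CD8 T cells 0 of 10 were at least 1.5-fold higher in Fit2-Mut and 1 at least 1.5-fold lower, where 17.4% and 9.06% of genes with at least 20 UMIs were, so these counts do not set the members apart. The lower one was Gzma, with a ratio of 0.278 (0.229 to 0.336). It rests on few cells: 9 Fit2-WT and 4 Fit2-Mut cells with at least 10 Gzma UMIs held 320 and 152 UMIs. Its interval treats each UMI as independent and is too narrow for that. Without the 5 highest cells of each library the levels were 106 and 5.91 CPM. That step takes out all 4 such Fit2-Mut cells but leaves some of the 9 Fit2-WT ones, so it cannot show whether the difference holds. Nkg7 had a ratio of 0.794 (0.738 to 0.856) and Tox 0.761 (0.658 to 0.881), and the intervals of the other 7 genes included 1: Gzmb 0.989 (0.733 to 1.34), Gzmk 1.01 (0.839 to 1.21), Prf1 0.905 (0.647 to 1.27), Ifng 0.895 (0.697 to 1.15), Pdcd1 1.03 (0.752 to 1.41), Lag3 1.44 (0.879 to 2.41) and Cxcr6 0.906 (0.768 to 1.07). Lag3 moved with the barcodes kept. Without the 5 highest cells of each library 7 and 33 UMIs were left, a ratio of 2.84 (1.23 to 7.60). Most Lag3 UMIs lay in barcodes that carry microglial genes. Without those barcodes 5 and 5 UMIs were left, a ratio of 0.898 (0.207 to 3.90), so no change of Lag3 in the T cells themselves can be read.

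These ratios moved with the barcodes that carry microglial genes, which made up 27% of Fit2-Mut and 14.5% of Fit2-WT CD8 T cells. Without them, 1 of 9 members with at least 20 UMIs was at least 1.5-fold higher and 1 lower, beside 13.1% and 9.58% of genes. Ifng was then at 114 and 183 CPM, a ratio of 1.61 (1.18 to 2.20), and Gzmk at 272 and 388 CPM, a ratio of 1.43 (1.17 to 1.75). Nkg7 and Tox were then level, at 1.02 (0.937 to 1.11) and 1.03 (0.874 to 1.22), and Gzma was still lower in Fit2-Mut, at 0.422 (0.346 to 0.515). Prf1 was at 1.30 (0.864 to 1.96), Gzmb at 1.27 (0.891 to 1.83) and Cxcr6 at 1.09 (0.902 to 1.32). Without the 5 highest cells of each library as well, Prf1 was at 1.79 (1.09 to 3.02), Ifng at 1.67 (1.13 to 2.50) and Gzmk at 1.52 (1.22 to 1.91). Gzma was then at 0.0598 (0.0158 to 0.161). As this step takes out every Fit2-Mut cell with at least 10 Gzma UMIs, the Gzma value cannot show whether its difference holds. The share of CD8 T barcodes without microglial genes with a Gzmk UMI was 51.7% and 69.3%, with median depths of 4230 and 4186 UMIs. With every cell thinned to 1000 UMIs it was 24.6% (17.1 to 33.4) and 33.9% (25.7 to 42.8), intervals that overlap. For Ifng the thinned shares were 14.4% and 14.2%, beside the CPM ratio above 1. Pdcd1 had a ratio of 0.882 (0.592 to 1.31) and thinned shares of 12.7% and 6.30%.

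**Figure D4:**
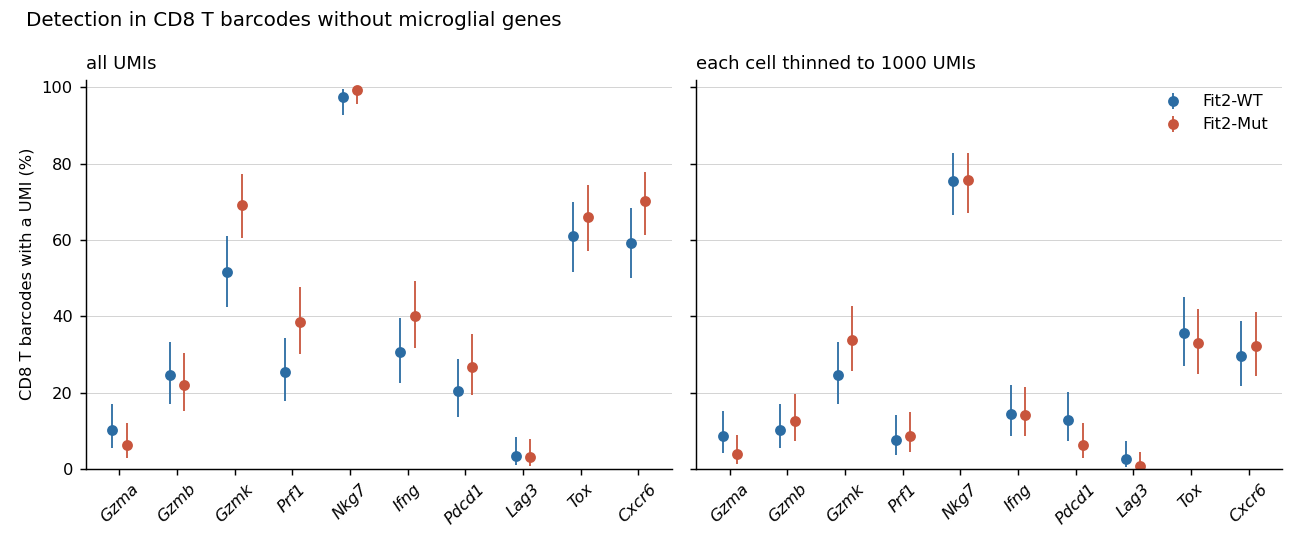
Share of CD8 T barcodes without microglial genes that hold at least 1 UMI of each gene, in percent, with all UMIs (left) and after thinning each barcode to 1000 UMIs (right); blue is Fit2-WT and red is Fit2-Mut, and lines are exact 95% Clopper-Pearson intervals of counting error. Gzmk is at 51.7% and 69.3% before thinning and at 24.6% and 33.9% after it.

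In NK cells, 2 of 7 members with at least 20 UMIs were at least 1.5-fold lower in Fit2-Mut and 0 higher, where 14.1% and 14.6% of genes were. Gzmb had a ratio of 0.594 (0.478 to 0.734) and Ifng, from 23 and 14 UMIs, 0.607 (0.289 to 1.23). Gzma, Nkg7 and Prf1 were at 0.788 (0.745 to 0.834), 0.806 (0.725 to 0.896) and 0.868 (0.727 to 1.04), and without the barcodes that carry microglial genes at 0.840 (0.791 to 0.893), 0.894 (0.798 to 1.0) and 0.970 (0.805 to 1.17). In other T cells, 1 of 9 was higher and 2 lower, beside 22.8% and 11.4% of genes: Gzma at 3.13 (2.37 to 4.19), from 2 and 5 cells, Ifng at 0.354 (0.196 to 0.613) and Pdcd1 at 0.645 (0.291 to 1.39). Without barcodes that carry microglial genes, 3 of 9 were higher in other T cells and 2 lower, beside 20.3% and 11.6% of genes, and in NK cells 0 of 7 higher and 2 lower, beside 14.6% and 14.2%. Without the 5 highest cells of each library, no Gzma UMI was left in other T cells.

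**Figure D5:**
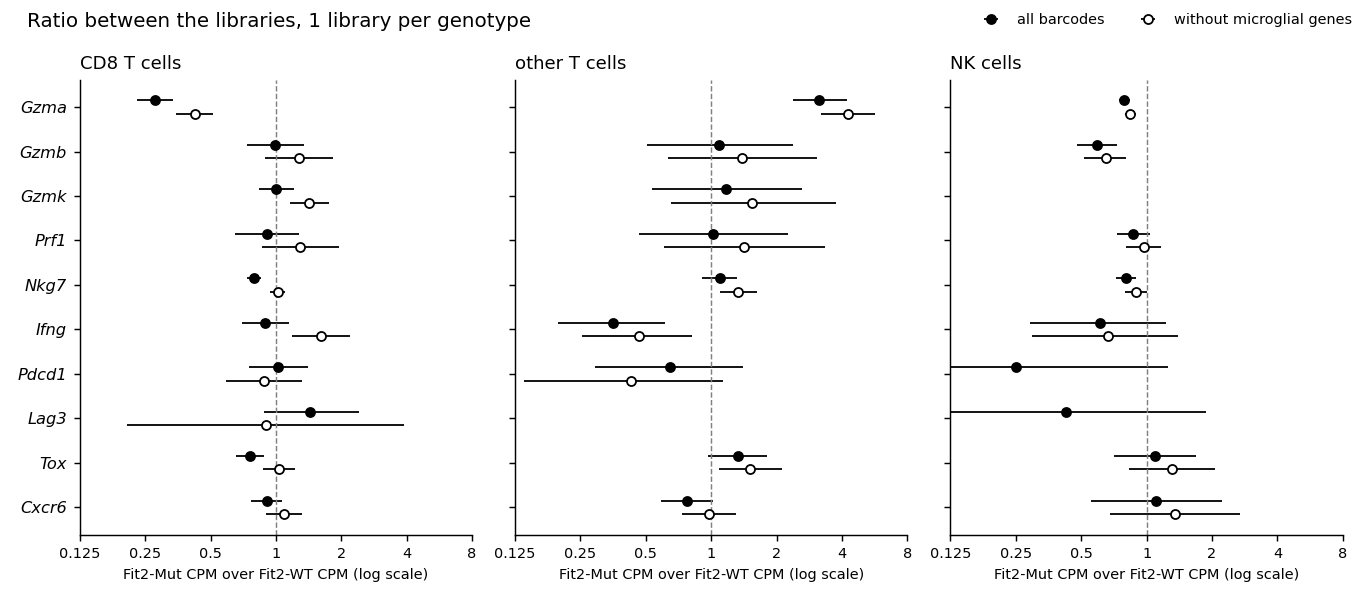
Fit2-Mut CPM over Fit2-WT CPM of each gene on a log axis in CD8 T, other T and NK cells, for all barcodes (filled) and without barcodes that carry microglial genes (open); lines are exact conditional 95% intervals of counting error and the dashed line is a ratio of 1. Genes with under 10 UMIs in both libraries together or 0 in either are not drawn, and the NK intervals of Pdcd1 and Lag3 run past the left end of the axis. Gzma lies below 1 in CD8 T and above 1 in other T cells, and the open CD8 T points of Gzmk and Ifng lie above 1.

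Outside the lymphocytes, Lag3 in microglia-like cells had a Fit2-Mut over Fit2-WT ratio of 1.15 (1.03 to 1.29), Pdcd1 there 1.0 (0.868 to 1.16), and Tox in astrocyte-like cells 0.854 (0.802 to 0.910). The astrocyte-like clusters differed in Tox and in cell number. The cluster highest in Tox, at 581 and 506 CPM, had 269 and 222 cells, and another, at 215 and 166 CPM, had 265 and 451. The pooled Tox ratio includes this difference in make-up, whose part in it was not tested. For the related genes named with a level or a class difference, the share of all genes whose interval excludes 1 was not counted. Of all genes with at least 20 UMIs in CD8 T cells, 17.4% were at least 1.5-fold higher and 9.06% lower in Fit2-Mut. CD8 T intervals below 1 were those of Ltb at 0.869 (0.769 to 0.983), Ccl5 at 0.803 (0.777 to 0.830) and Klrg1 at 0.511 (0.270 to 0.958). So were those of Tcf7 at 0.584 (0.437 to 0.780), Lef1 at 0.389 (0.312 to 0.484) and Klrd1 at 0.671 (0.540 to 0.835). Intervals above 1 were found for Zeb2 at 1.5 (1.26 to 1.79), Cd274 at 2.05 (1.31 to 3.35) and Cxcl16 at 1.89 (1.20 to 3.05). Cd274 and Cxcl16 were also counted in microglia-like cells. Their ratios include the barcodes that carry microglial genes, 14.5% of Fit2-WT and 27% of Fit2-Mut CD8 T barcodes. The ratios of Cd274 and Cxcl16 therefore cannot be read as a change in the T cells themselves. Without barcodes that carry microglial genes, Lef1 at 0.475 (0.365 to 0.616) and Klrk1 at 0.734 (0.548 to 0.980) lay below 1 and Serpinb6b at 2.57 (1.04 to 7.18) above it, while Tcf7 was at 0.802 (0.580 to 1.11), Ccl5 at 1.02 (0.981 to 1.06) and Zeb2 at 1.17 (0.833 to 1.66).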

How the data were processed

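Whole brains were dissociated and sequenced as single cells with droplet-based chemistry, per the labels' protocols. The deposited values are raw UMI counts of every barcode, empty ones included. Reads were aligned to mm10; the tool is Cell Ranger, given as 7.0.0 in the submitters' processing notes, while the file headers give 7.1.0. Handling of intronic reads is not given in the sources used here.

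Members and lists were chosen with earlier results of these data known. Cells, classes and the microglial limit are as stated with the results; doublets called by Scrublet (Scanpy 1.11.5) were kept and removed as an alternative. Counts were summed per library and class into 8 sums, and class differences were fitted with edgeR 4.0.16 (quasi-likelihood, TMM, library as a block, at least 10 UMIs over the lymphocyte sums, Benjamini-Hochberg over all genes tested). DESeq2 1.42.0 was an alternative. Library and genotype cannot be told apart. The block takes up the overall difference between the libraries, so p-values measure how far the class differences vary between these 2 libraries. The estimate of that spread draws on all 8 sums, those of all other cells included. On simulated data, 75.5% of 200 genes changed 4-fold between CD8 T and other T cells were recovered among 11925 genes, with 4.43% false calls. The simulation gave every sum the same lymphocyte profile and every gene the same spread, and the least counted genes were not among those changed. Its rates need not hold for genes whose UMIs lie in a few cells. Free RNA, read from barcodes of 10 to 100 UMIs, was estimated at 1.67% to 2.36% of the median lymphocyte's UMIs. Cell types are Leiden clusters (members left out) named from markers, and clusters carry no test. Named genes are the members, 2 to 4 called genes of each list by adjusted p, and for each member the 3 genes most like it; Ccl5, Klrk1 and Klrd1 were added after their values were seen, and 1 gene is not reported here. Other settings tried were the cell limits, Cd3 and Cd8 minimums, gates within lymphocyte clusters, scaling, no filter, equal weight per cell and leaving out the 5 highest cells. Sequences are RefSeq's on GRCm38.p6, and gene positions are from GENCODE on GRCm38.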

Additional observations from a re-analysis of the deposited data

Results flagged for a closer look

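Gzma moved in opposite directions in the T cell classes. Its Fit2-Mut over Fit2-WT ratio was 0.278 in CD8 T cells and 3.13 in other T cells, and in NK cells it was 0.788, so other T cells stood on the other side of 1 from both. Equally, the Gzma level of CD8 T cells over that of other T cells was 2.02 in Fit2-WT and 0.180 in Fit2-Mut. With 1 library per genotype these differences were not tested. The other T cell values rest on 2 and 5 cells with a Gzma UMI, of which 35 of 65 and 217 of 228 UMIs lay in barcodes that also had UMIs of at least 2 NK receptor genes; in CD8 T cells 92 of 342 and 93 of 163 did.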

How the results depend on the processing

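Of the values of class differences under other settings, 916 kept their side of the threshold, without a change of sign where either value was called. With a library left out and so no test, this means a move of less than 1 on the log2 scale, and 18 moved by more. Of the rest, 11 fell under the threshold, 10 passed it and 5 changed sign where a value was called, all 5 for Lag3. Changes of sign between values that were not called were not counted. Those that moved with a library left out were of Gzma, Gzmk, Ifng and Lag3; Gzma in CD8 T against NK cells was -6.19 without Fit2-WT, and in CD8 T against other T cells 1.01 without Fit2-Mut and -2.48 without Fit2-WT. Lag3 in CD8 T against all other cells was -0.83 without barcodes that carry microglial genes and -0.68 with gates only within T cell and NK cell clusters. In NK against all other cells, where no Lag3 UMI was then left, the fitted values were -10.56, -10.54 and, without the cluster that carries T cell and microglial genes together (13 Fit2-WT and 42 Fit2-Mut barcodes, an alternative chosen after seeing the data), -10.57. These put 1 member lower in NK against all other cells under the same settings, and 1 lower in other T cells without the microglial barcodes, from 0.

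The count of members higher in CD8 T than in other T cells, 1, was 0 with a 5% mitochondrial limit, without doublets, with at least 3 Cd3 UMIs, with RLE scaling and with total UMI scaling, 2 with at least 1 Cd3 UMI and with DESeq2, and 3 with no filter. All genes called there numbered 4 higher and 0 lower, but 264 higher and 214 lower with no filter, 28 higher and 44 lower with DESeq2, 40 higher and 231 lower with at least 1 Cd3 UMI and 10 higher and 1 lower without microglial barcodes. Between CD8 T and NK cells they numbered 98 higher and 164 lower, 60 higher and 198 lower with total UMI scaling (median of all genes -0.14 against 0.06, members higher 2 against 4, Pdcd1 and Tox no longer called), 256 higher and 288 lower with DESeq2, 401 higher and 426 lower with no filter and 254 higher and 224 lower without microglial barcodes. Without the library as a replicate block, no member's call changed, and 5 higher and 1 lower genes were called between CD8 T and other T cells and 77 higher and 161 lower between CD8 T and NK cells.

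Members at least 1.5-fold higher in Fit2-Mut CD8 T cells were 0, but 1 without microglial barcodes, without that cluster and without the 5 highest cells, and 2 with gates within clusters. In other T cells the higher count, 1, was 3, 2, 0 and 5 under those settings in that order and 4 with cells weighted equally. The lower count there, 2, was 1 with at least 1 or 3 Cd3 UMIs, within clusters and without the 5 highest cells. In NK cells the lower count, 2, was 1 within clusters and 0 without the 5 highest cells. Where no cause is named by the setting itself, the cause was not tested. Levels at a few UMIs, such as Lag3 in lymphocytes, are limited by depth.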
